A study of Mus musculus with 17 samples.

Results

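The genes described here are 9 components, receptors and regulators of the complement system: C1qa, C1qb, C1qc, C4b, C3, C3ar1, C5ar1, Cd59a and Cd55. They were taken by symbol from the 52373 gene identifiers that both batches of the series list, and each symbol matched 1 identifier in each batch. The series measured RNA bound to HA-tagged ribosomes in the corpus callosum, the white matter tract that joins the hemispheres, during and after demyelination by cuprizone, a copper chelator fed in the chow. Every group, mock included, was of male mice of 8 to 9 weeks with the genotype GFAP-Cre+/- Rpl22HA/wt, in which Cre recombinase under a GFAP promoter switches on the tagged ribosomal protein Rpl22. The cuprizone groups received 0.2% cuprizone for 5 weeks and were sampled then, or at week 5.5 or week 7 of the experiment after return to normal chow. Each has a mock group of the same week. The GFAP-Cre line and any pooling of animals are not given in the sources used here, and no library of total RNA was used, so enrichment for astrocytes was not tested.

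Complement is a cascade of proteins that tags cells and debris for removal. C1q, built from the chains C1qa, C1qb and C1qc, binds the target and starts the classical pathway, in which C4 and C3 are cleaved and deposited. The released fragments C3a and C5a act on the receptors C3ar1 and C5ar1, while Cd55 and Cd59a protect host membranes from C3 cleaving enzymes and from the terminal pore. In the brain, C1q is known as a product of microglia, C4b and C3 as genes of reactive astrocytes among other cells, and C3ar1 and C5ar1 as receptors of microglia and macrophages.

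The 17 deposited libraries hold 9 separate ones. In the other 8, between 44.3% and 96.5% of genes with 500 or more counts lay within 10 counts of another library of the group, so these repeats were shown but not used as samples. This left 2 mock and 3 cuprizone libraries at 5.5 weeks and 1 library per group at 5 and 7 weeks, where no test between groups of that week alone is possible. The 9 libraries held 20797535 to 30400048 counts. The 7-week cuprizone library had a count for 34576 genes, against 19496 to 23980 in the other 8. All 5-week libraries are batch 1 and all others batch 2, so week and batch cannot be told apart between 5 weeks and the later weeks. Gfap (900.2 to 9691 CPM, counts scaled to libraries of equal size) and Aldh1l1 (105.2 to 169.1 CPM) mark astrocytes and were present in every library. The scaling was set within each week, so CPM of different weeks are not on a common scale. Summed levels of 10 oligodendrocyte markers (10480 to 23030 CPM) and 8 neuronal markers (6032 to 12050 CPM) were of the size of the 10 astrocyte markers (9027 to 18750 CPM), and 15 microglial markers summed to 38.4 to 75.6 CPM except in the 7-week cuprizone library, which had 1007 CPM. The same library stood apart in 6 endothelial markers, at 197 CPM against 0.697 to 5.78 CPM in the other 8, and in 4 pericyte markers, at 194.4 CPM against 19.9 to 26.3 CPM.

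After cuprizone, C4b, C3 and C3ar1 rose at 5.5 weeks, the C1q chains were over 2-fold higher at 5 and 7 weeks, and the membrane regulators Cd59a and Cd55 were not called at 5.5 weeks. At 5.5 weeks, 8 of the 9 genes passed the filter on low counts, C5ar1 not, and 3 of the 8 were called higher and none lower by edgeR's quasi-likelihood test (Benjamini-Hochberg adjusted p under 0.05). Of all 16086 genes tested, 1.47% were called, 1.08% higher and 0.392% lower. In 6 of the 8 the cuprizone and mock libraries did not overlap, against 28% of all genes tested. C3ar1, which is in both counts, had 4 and 3 counts in mock and passed the filter only through the cuprizone libraries. These counts are therefore given as descriptions. At 5 weeks, 5 of the 9 reached 5 CPM in at least 1 library, and the ratio was 2 or more for 3 of these, the C1q chains. Of 11570 genes that reached this level, 21.1% were at least 2-fold apart, 8.89% higher and 12.2% lower. At 7 weeks, 7 of the 9 reached 5 CPM and those 7 were at least 2-fold higher, against 15.4% of 12173 genes apart (9.9% higher, 5.54% lower). C1qa and C1qc at 5 weeks, and C1qa, C3, C3ar1 and Cd59a at 7 weeks, were below 5 CPM in mock and reached it only through the cuprizone library. The counts of 5 and 7 weeks are therefore descriptions as well, with no reading against the share over all genes. Scaling by library totals in place of TMM turned the 7-week split over all genes from 1205 higher and 674 lower to 2197 and 112, with the median log2 ratio over all genes moving from -0.23 to 0.22, and left 7 of the 9 at least 2-fold higher. In these bulk libraries fewer or more cells of a type and less or more RNA per cell cannot be told apart.

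The 3 C1q chains were 3.51 to 5.16 times as high in the cuprizone library as in mock at 5 weeks and 18.1 to 25.02 times as high at 7 weeks, while at 5.5 weeks their means were 1.71 to 1.99 times the mock means and none passed the test. Their genes (ENSMUSG00000036887, ENSMUSG00000036905 and ENSMUSG00000036896) lie on chromosome 4. The sequences before the start sites of C1qb and C1qc are shown because the chains moved together. Each is the 250 bases before the RefSeq start in GRCm38.p6, on the minus strand, at chr4:136886201-136886450 for C1qb and chr4:136892915-136893164 for C1qc. Capitals mark ACTTCCT, the reverse complement of the PU.1 and ETS core AGGAAGT, and in C1qc also 1 match to the NF-kB consensus.
C1qb: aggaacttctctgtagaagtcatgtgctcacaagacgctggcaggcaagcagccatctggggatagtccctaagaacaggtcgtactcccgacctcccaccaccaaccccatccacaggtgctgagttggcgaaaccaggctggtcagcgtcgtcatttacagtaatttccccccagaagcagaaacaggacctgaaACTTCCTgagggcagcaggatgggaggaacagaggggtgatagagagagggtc
C1qc: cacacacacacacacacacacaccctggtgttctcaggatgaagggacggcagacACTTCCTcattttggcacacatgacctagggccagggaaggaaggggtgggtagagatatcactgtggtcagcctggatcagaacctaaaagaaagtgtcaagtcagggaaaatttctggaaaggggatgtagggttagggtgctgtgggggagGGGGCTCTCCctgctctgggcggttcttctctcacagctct
Both strands were searched for 5 motifs: AGGAAGT, the interferon elements GAS (TTCNNNGAA) and ISRE, the C/EBP motif TTGCNNAA, and NF-kB. ACTTCCT lay at bases -53 to -47 in C1qb and -195 to -189 in C1qc, and the NF-kB match at -41 to -32 in C1qc. Of all 32851 RefSeq promoters of that length, 7.69% hold the PU.1 and ETS core and 7.25% the NF-kB consensus, so such matches are frequent and are given as letters in these windows only. The table has an entry for 7 of the 9 genes, without C1qa and C4b.

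C1qa measured 2.93 CPM in the 5-week mock library and 11.1 CPM in the cuprizone library. At 5.5 weeks it measured 1.59 and 2.52 CPM in mock and 3.95, 4.51 and 3.80 CPM after cuprizone. At 7 weeks it measured 3.32 CPM in mock and 83.0 CPM after cuprizone. The cuprizone library lay above the mock library at 5 and 7 weeks, and at 5.5 weeks the groups did not overlap. The ratios were 3.80 at 5 weeks (95% interval 2.85 to 5.13, exact, counting error only) and 25.02 at 7 weeks (20.2 to 31.35). At 5.5 weeks the mean went from 2.06 ± 0.659 (SD, n = 2) to 4.09 ± 0.377 CPM (SD, n = 3), a log2 change of 0.99 ± 0.25 (SE; edgeR adjusted p = 0.0872), so the call was missed. The direction was the same in all 15 alternative analyses, 5 of which passed the threshold.

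Where 1 value per group is given for 5 or 7 weeks, mock comes first. C1qb, the chain with the most counts, measured 8.485 CPM in mock and 29.8 CPM after cuprizone at 5 weeks, a ratio of 3.51 (2.97 to 4.18). It measured 4.33 and 7.13 CPM in mock and 7.53, 13.3 and 8.52 CPM after cuprizone at 5.5 weeks, and 10.5 and 191 CPM at 7 weeks, a ratio of 18.1 (16.1 to 20.55). The highest 5.5-week mock value, 7.13 CPM, lay just below the lowest cuprizone value, and the log2 fold change of 0.77 ± 0.27 did not pass (SE; edgeR adjusted p = 0.3025). C1qc measured 3.90 and 20.1 CPM at 5 weeks, a ratio of 5.16 (4.06 to 6.64). At 5.5 weeks it measured 3.81 and 4.715 CPM in mock and 6.69, 11.3 and 6.22 CPM after cuprizone, with a log2 change of 0.91 ± 0.26 that did not pass (SE; edgeR adjusted p = 0.160). At 7 weeks it measured 8.16 and 175.8 CPM, a ratio of 21.5 (18.8 to 24.8). In each of the 3 chains cuprizone library 2 was the highest at 5.5 weeks, and it also had the highest microglial sum of that week, 67.9 CPM.

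**Figure D1:**
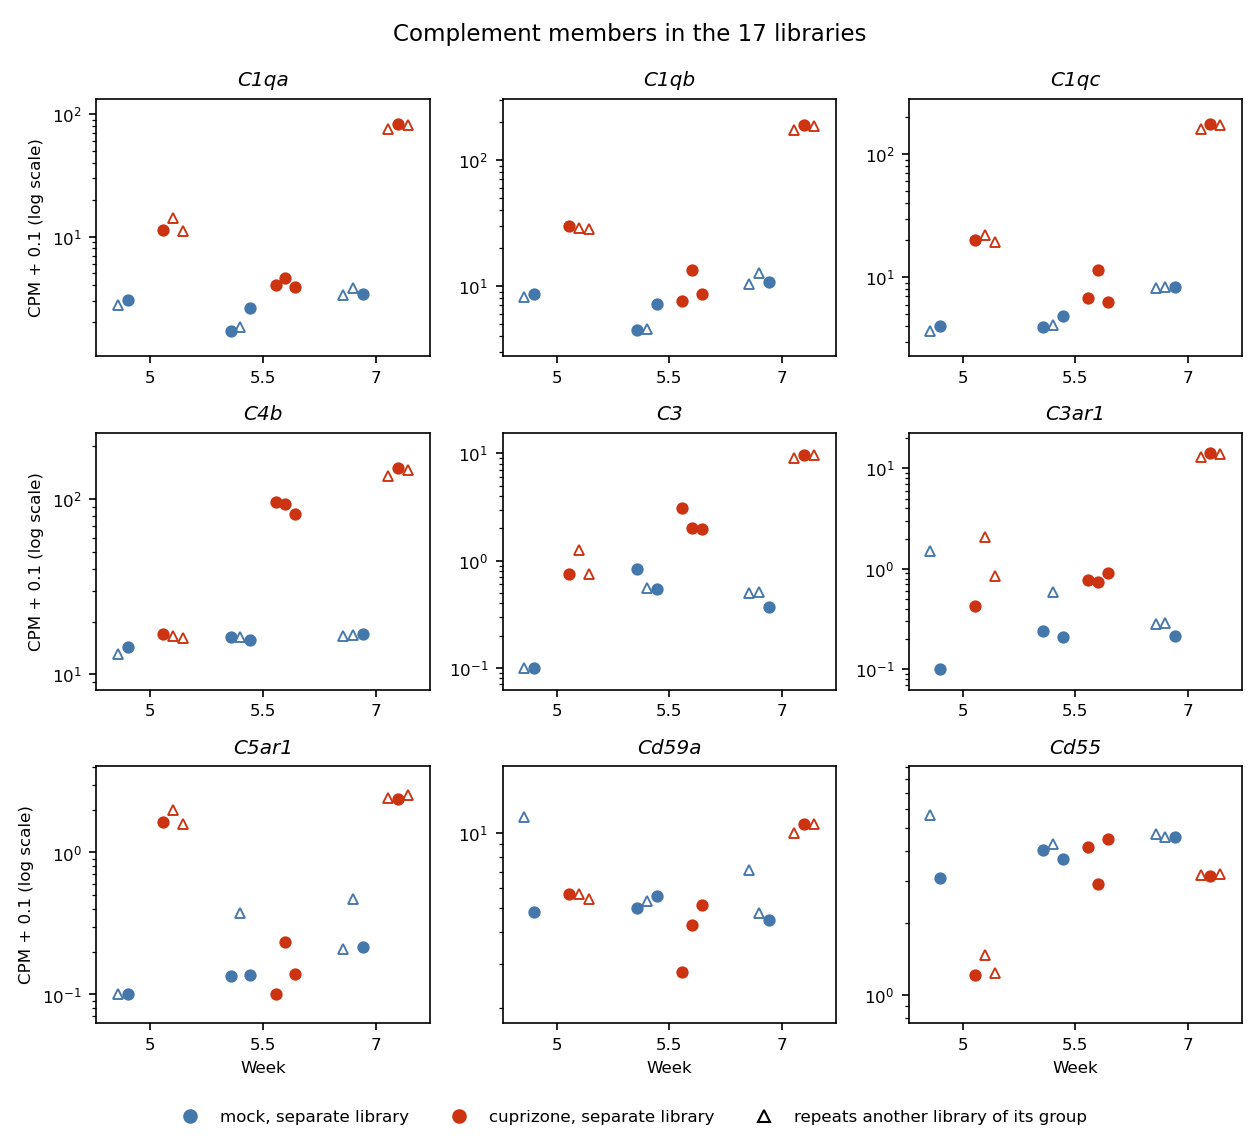
CPM plus 0.1 (log axis, scaled within each week) of the 9 genes by week in all 17 libraries, in mock (blue) and cuprizone (red). Filled circles are the 9 separate libraries and open triangles those that repeat another library. The 7-week cuprizone points of the C1q chains, C4b, C3, the receptors and Cd59a lie above every other separate library, and those of Cd55 do not.

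Of all C1q counts, C1qa took 15.1% to 21.7%, C1qb 41.4% to 55.4% and C1qc 25.5% to 39.1% over the 9 libraries. Per kilobase of exon, C1qb was the highest of the 9 genes in 6 of the 9 libraries. The exceptions were the 3 cuprizone libraries at 5.5 weeks, where C4b led. In the 5-week cuprizone library C1qb stood at 27.4 CPM per kilobase, C1qa at 10.7 and C1qc at 10.4.

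Microglial markers, a list that leaves complement genes out, moved with C1q. Of the 15, 7 reached 5 CPM at 5 weeks and 5 of them were at least 2-fold higher after cuprizone, with a median log2 ratio of 1.06 and a sum of 75.6 CPM against 50.03 CPM in mock. None was called at 5.5 weeks by edgeR, with a median of 0.40 and sums of 48.7 to 67.9 CPM against 38.4 to 41.95 CPM. All 15 were at least 2-fold higher at 7 weeks, with a median of 3.98. None of the 15 was at 0 in all libraries of a week. C1q counts per microglial marker count differed most from mock at 5 weeks, at 0.807 against 0.306. At 5.5 weeks the ratio was 0.254 and 0.342 in mock and 0.357, 0.428 and 0.381 after cuprizone, and at 7 weeks it was 0.34 and 0.447. Within the 5-week cuprizone library the homeostatic microglial gene P2ry12 was lower than in mock, at 3.25 against 5.51 CPM, the fractalkine receptor Cx3cr1 was higher, at 8.18 against 3.27 CPM, and the growth factor receptor Csf1r was close, at 3.81 against 3.56 CPM. The part of microglial RNA in the C1q values was not tested.

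**Figure D2:**
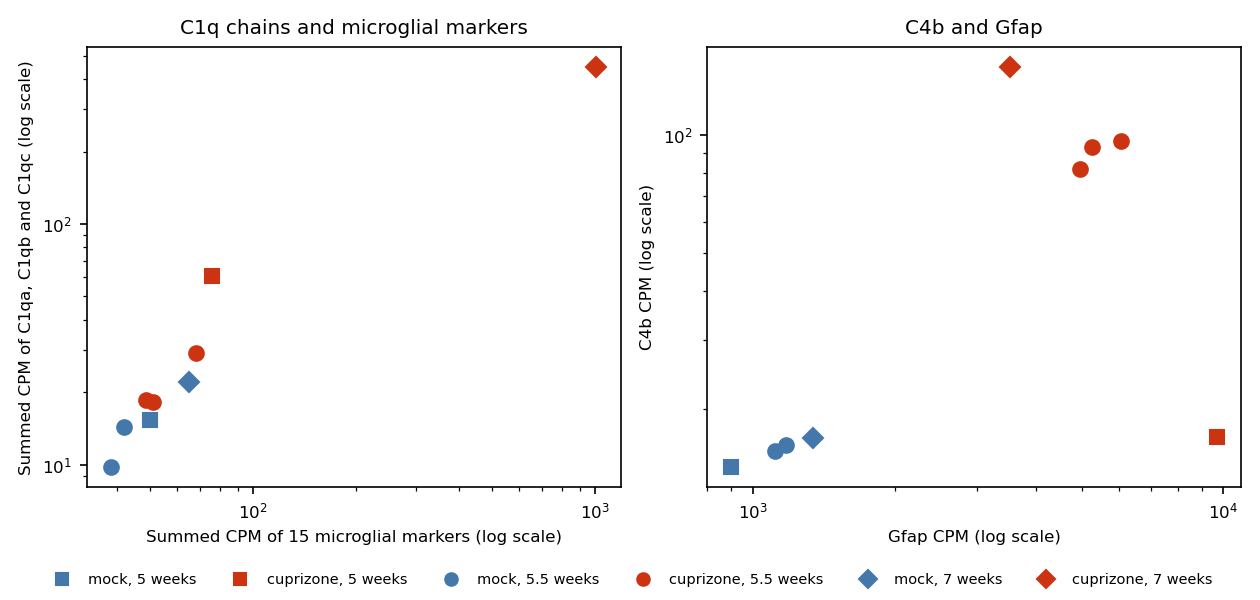
Left, summed CPM of the 3 C1q chains against summed CPM of 15 microglial markers, and right, C4b CPM against Gfap CPM, both on log axes, with 1 point for each of the 9 separate libraries. The 5-week cuprizone library (red square) has a C1q sum of 61.0 CPM at a microglial sum of 75.6 CPM, and the highest Gfap with a C4b level near mock.

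In 1 fit of the 9 libraries, which assumes that the lone libraries of 5 and 7 weeks vary like those of 5.5 weeks, the difference of each week's cuprizone effect from that of 5.5 weeks was tested by edgeR. Both comparisons share the 5.5-week libraries. C3ar1 and C5ar1 entered this fit only through cuprizone libraries, with at most 4 and 3 counts in any separate mock library. The counts of members called are therefore descriptions beside the shares over all genes. The genes called higher at 5 weeks include C3ar1, on 7 counts against 0, for which no direction is read. In that fit edgeR called 7 of the 9 genes at 5 weeks, 6 higher and 1 lower, and 8 at 7 weeks, all higher, against 33.1% and 39.3% of the 20292 genes tested. The effect at 7 weeks exceeded that at 5.5 weeks for 7 of the 9 genes, against 17.2% of 20292 genes different in either direction. The effect at 5 weeks differed for 3 of the 9, which is near the 23.2% of all genes. For the C1q chains the 7-week effect was larger by 3.75 ± 0.36 (C1qa; SE, edgeR adjusted p = 2.35e-06), 3.51 ± 0.50 (C1qb; edgeR adjusted p = 0.00306) and 3.61 ± 0.42 (C1qc; edgeR adjusted p = 0.000256) on the log2 scale, each called in all 11 alternatives. Among the chains, C1qc alone passed at 5 weeks, with an effect larger by 1.39 ± 0.45 (edgeR adjusted p = 0.0441), and this call was lost without mock 1 or without mock 3 of 5.5 weeks.

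C4b, the mouse C4 gene of the classical pathway (ENSMUSG00000073418, chromosome 17), was near mock at 5 weeks, rose at 5.5 weeks and had its highest ratio to mock at 7 weeks. It measured 14.2 CPM in mock and 16.9 CPM after cuprizone at 5 weeks, a ratio of 1.19 (1.02 to 1.40). Levels at 5.5 weeks were 16.2 and 15.6 CPM in mock and 96.3, 93.4 and 81.7 CPM after cuprizone. Levels at 7 weeks were 16.9 and 149 CPM, a ratio of 8.84 (8.01 to 9.77). The mock libraries measured 14.2 to 16.9 CPM, on a scale set within each week, so their levels are not compared between weeks. Every 5.5-week cuprizone library lay above the mock libraries of that week. The log2 fold change at 5.5 weeks was 2.51 ± 0.13 (SE; edgeR adjusted p = 5.07e-06), and it was called in all 15 alternatives, at 2.46 to 2.58. The effect at 5 weeks was smaller than that at 5.5 weeks by 2.33 ± 0.25 log2 units (edgeR adjusted p = 1.81e-06, called in all 11 alternatives). The effect at 7 weeks was larger by 0.73 ± 0.23 (edgeR adjusted p = 0.0385), a call lost without mock 1, cuprizone 1 or cuprizone 3 of 5.5 weeks.

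C4b did not follow Gfap at 5 weeks. In the 5-week cuprizone library Gfap, the intermediate filament of astrocytes, stood at 9691 CPM against 900.2 CPM in mock. The 5.5-week cuprizone libraries had 6066, 5263 and 4947 CPM and the 7-week one 3513 CPM, each scaled within its own week. C4b counts per 1000 Gfap counts were 1.75 after cuprizone and 15.8 in mock at 5 weeks. They were 13.7 and 14.0 in mock and 15.9, 17.7 and 16.5 after cuprizone at 5.5 weeks, and 12.6 and 42.4 at 7 weeks. C4b has a close copy, C4a: 35.2% of the 50-base windows of its exons also occur in C4a, so reads may be split between them. C4a took 0% to 1.68% of the counts of both genes and had at most 19 counts in a separate library. The genes closest to the C4b pattern over the 9 libraries, by Pearson r of log2(CPM + 1) among 11213 genes, were Prom1 (r = 0.986), Thbs4 (0.947), Slc14a1 (0.937), Zfyve28 (0.911) and Brip1os (0.907). This is a ranking by likeness over libraries that share treatment, week and batch.

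C3, the convergence point of the pathways (ENSMUSG00000024164, chromosome 17), was a low transcript that was higher after cuprizone in every week. The 250 bases before its RefSeq start, at chr17:57228137-57228386 on the minus strand of GRCm38.p6, are shown because C3 is a central member and holds 1 of the motifs searched. Capitals mark the match to the C/EBP motif TTGCNNAA at bases -45 to -38, which 9.56% of all promoters hold.
C3: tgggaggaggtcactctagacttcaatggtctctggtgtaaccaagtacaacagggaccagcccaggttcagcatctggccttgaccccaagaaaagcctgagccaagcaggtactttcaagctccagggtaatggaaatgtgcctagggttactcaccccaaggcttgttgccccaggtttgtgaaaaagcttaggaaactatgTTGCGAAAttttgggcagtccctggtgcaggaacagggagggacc
C3 had 0 counts in the 5-week mock library and 14 after cuprizone (0.651 CPM). This was 4.45-fold higher against a floor of 3 counts in the mock library, and the exact interval for counting error began at 3.16-fold. The 5.5-week levels were 0.727 and 0.4455 CPM in mock and 3.01, 1.90 and 1.88 CPM after cuprizone. The 7-week libraries held 7 counts in mock (0.267 CPM) and 276 after cuprizone (9.65 CPM), a ratio of 36.1 (17.3 to 90.7). The repeats mock 1 and mock 2 had 11 counts each. The groups did not overlap at 5.5 weeks, and the log2 fold change was 1.94 ± 0.35 (SE; edgeR adjusted p = 0.0195). That call was lost without mock 1, mock 3 or cuprizone 1, where adjusted p reached 0.19, and held in the other 12 of 15 alternatives. The effect at 7 weeks exceeded that at 5.5 weeks by 3.295 ± 0.70 log2 units (SE; edgeR adjusted p = 0.00357), called in all 11 alternatives. Per kilobase of exon C3 stayed far below C4b, at 0.366 to 0.585 against 14.3 to 16.9 CPM in the 5.5-week cuprizone libraries. The genes closest to the C3 pattern, by the same measure as for C4b, were Mxra8 (r = 0.979), Acox3 (0.971), Brip1os (0.958), Bmp1 (0.955) and Xpr1 (0.952), and those closest to C1qa were Fcer1g (0.994), C1qb (0.991), Unc93b1 (0.989), C1qc (0.988) and Lair1 (0.985).

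C3ar1, the receptor for C3a (ENSMUSG00000040552, chromosome 6), was scarce in every library but the 7-week cuprizone one. It had 0 counts in the 5-week mock library and 7 after cuprizone, 2.225-fold higher against the floor of 3 counts. The exact interval for counting error began at 1.37-fold. However, mock 1, which repeats that mock library for 44.3% of genes with 500 or more counts, had 32 counts. A cuprizone repeat had 45, so no direction is read at 5 weeks. At 5.5 weeks it had 4 and 3 counts in mock (0.1385 and 0.111 CPM) and 20, 14 and 21 after cuprizone (0.676, 0.632 and 0.806 CPM). At 7 weeks it had 3 counts in mock and 403 after cuprizone (0.114 and 14.1 CPM), a ratio of 123 (41.8 to 599). The repeats mock 1 and mock 2 had 5 counts each. The groups did not overlap at 5.5 weeks, where C3ar1 rose by 2.45 ± 0.49 log2 units (SE; edgeR adjusted p = 0.03155). That call was kept in 7 of 14 alternatives and lost with DESeq2, without mock 1, mock 3, cuprizone 1 or cuprizone 3, when the repeats were added as samples or averaged in, over a range of adjusted p from 0.00278 to 0.252. The effect at 7 weeks exceeded that at 5.5 weeks by 4.52 ± 0.96 (edgeR adjusted p = 0.00372), called in all 11 alternatives.

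C5ar1, the receptor for C5a (ENSMUSG00000049130, chromosome 7), is shown with the 250 bases before its RefSeq start at chr7:16259339-16259588, minus strand, GRCm38.p6, because ACTTCCT occurs in it at bases -190 to -184 and -72 to -66, as in the C1q genes above. Capitals mark both.
C5ar1: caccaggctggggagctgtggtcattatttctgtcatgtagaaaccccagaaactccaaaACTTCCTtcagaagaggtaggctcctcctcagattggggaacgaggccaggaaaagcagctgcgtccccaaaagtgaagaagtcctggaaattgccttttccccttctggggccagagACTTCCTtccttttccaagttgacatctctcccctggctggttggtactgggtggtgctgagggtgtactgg
It had 0 counts in the 5-week mock library and 33 after cuprizone (1.53 CPM), 10.5-fold higher against the floor of 3 counts. The exact interval for counting error began at 8.06-fold. Of the 21951 genes with a count in either library at 5 weeks, 201 (0.916%) had 0 counts in mock and 30 or more after cuprizone, and 158 (0.72%) the reverse. Counts at 5.5 weeks were 1 and 1 in mock and 0, 3 and 1 after cuprizone, below the filter on low counts. Without the filter and in the shared fit the log2 change was 0.49 to 0.50 (edgeR adjusted p = 0.951 to 0.955), so no difference was detectable at this depth. In the 7-week libraries it had 3 counts in mock and 65 after cuprizone, a ratio of 19.9 (6.5 to 98.8). Against mock 2 of that week, a repeat with 10 counts, the log2 ratio was 2.40 in place of 3.645. In the shared fit, neither difference from the 5.5-week effect passed for 5 or 7 weeks (edgeR adjusted p = 0.0617 and 0.162). Beside the receptors, Lyz2, a lysozyme of macrophages and activated microglia, measured 0 and 6.88 CPM at 5 weeks and 0.9155 and 98.6 CPM at 7 weeks. At 5.5 weeks it measured 0.693 and 0.557 CPM in mock and 3.58, 6.275 and 3.80 CPM after cuprizone. It is 1 of 10 listed markers of activated microglia or macrophages, which did not all rise. At 5 weeks 7 reached 5 CPM, with 4 at least 2-fold higher and 1, Lpl, lower (23.55 and 10.93 CPM). At 7 weeks 9 did, with 6 higher and 0 lower. All the higher ones of both weeks were below 5 CPM in mock and reached it only through the cuprizone library. Of all genes at this level, 8.89% were at least 2-fold higher and 12.2% lower at 5 weeks. At 7 weeks 9.9% were higher and 5.54% lower. These marker counts are descriptions, with no reading against those shares. The list's sum, with Apoe the largest part, was 7174 and 5663 CPM at 5 weeks and 8552 and 7102 CPM at 7 weeks. Border macrophage markers summed to 0.927 and 0.744 CPM at 5 weeks, 1.11 to 1.26 CPM over the 5.5-week libraries and 1.14 and 11.54 CPM at 7 weeks. Their part in the receptor values was not tested.

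**Figure D3:**
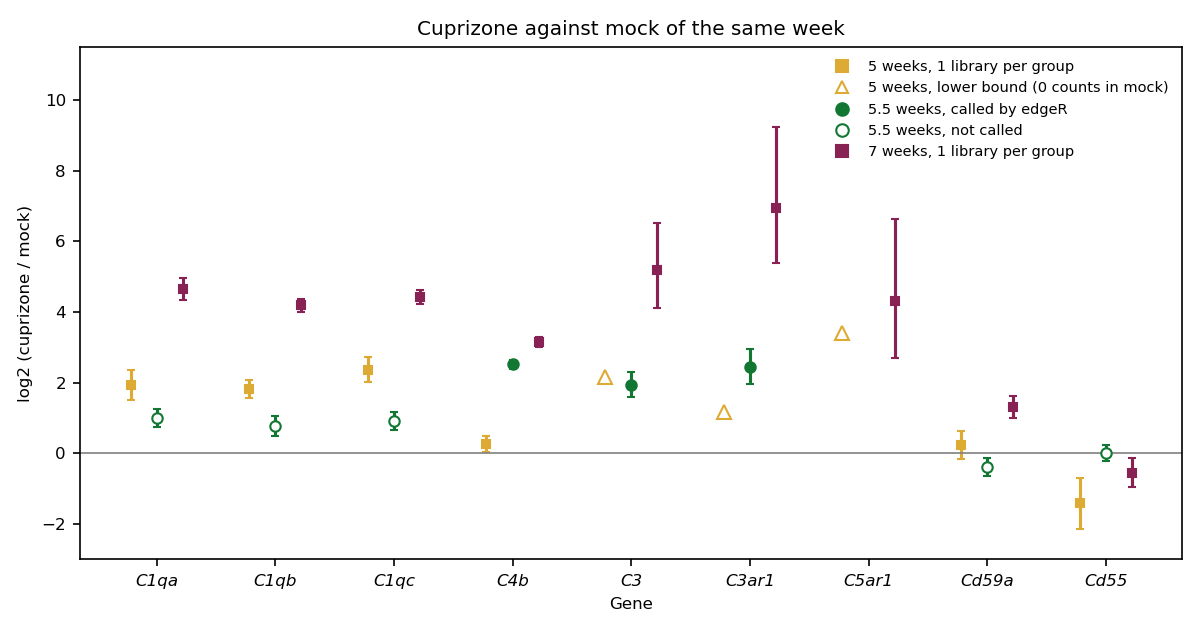
Log2 ratio of cuprizone to mock for the 9 genes at 5 (yellow), 5.5 (green) and 7 weeks (purple). Bars are SE at 5.5 weeks and exact 95% intervals for counting error at 5 and 7 weeks. Open triangles, called lower bounds in the key, are ratios to a floor of 3 mock counts and leave out counting error in the cuprizone library. C5ar1 was below the filter on low counts at 5.5 weeks. Filled green circles are C4b, C3 and C3ar1, the 3 genes called by edgeR.

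Among the membrane regulators, Cd59a, an inhibitor of the terminal pore (ENSMUSG00000032679, chromosome 2), measured 4.73 CPM in mock and 5.58 CPM after cuprizone at 5 weeks, a ratio of 1.18 (0.895 to 1.56). Mock 1 of that week, a repeat for other genes, measured 11.4 CPM, against which the log2 ratio was -1.02, so no direction is read at 5 weeks. Values at 5.5 weeks were 4.92 and 5.49 CPM in mock and 2.67, 4.198 and 5.03 CPM after cuprizone, overlapping, with a log2 change of -0.40 ± 0.25 (SE; edgeR adjusted p = 0.619). Values at 7 weeks were 4.39 and 10.8 CPM, a ratio of 2.46 (1.98 to 3.08). Against mock 1 of that week, a repeat that measured 6.98 CPM, the ratio was below 2. The effect at 7 weeks exceeded that at 5.5 weeks by 1.79 ± 0.43 (edgeR adjusted p = 0.00812), called in all 11 alternatives. Its close copy Cd59b shares 3.98% of 50-base windows and had 14 to 35 counts, against 79 to 309 for Cd59a.

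Cd55, which speeds the decay of C3-cleaving enzymes (ENSMUSG00000026399, chromosome 1), was the only one of the 9 with a lower value after cuprizone at both 5 and 7 weeks. It had 61 counts in mock (2.97 CPM) and 24 after cuprizone (1.12 CPM) at 5 weeks, 2.67-fold lower (1.64 to 4.47). Against mock 1, a repeat at 5.54 CPM, the log2 ratio was -2.22 in place of -1.34. The 5.5-week values were 3.95 and 3.60 CPM in mock and 4.05, 2.80 and 4.375 CPM after cuprizone, with a log2 change of -0.01 ± 0.23 (edgeR adjusted p = 0.996). The 7-week values were 4.46 and 3.04 CPM, 1.47-fold lower (1.10 to 1.96), and -0.12 on the log2 scale with library totals in place of TMM. The 5-week effect was below that of 5.5 weeks by a log2 difference of -1.48 ± 0.51 (edgeR adjusted p = 0.0408), a call made in only 3 of 11 alternatives. Cd55b, the close copy that shares 10.7% of windows, was at 0 in all 9 separate libraries.

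Of 54 other genes of the complement pathway, 28 were tested at 5.5 weeks and 2 rose and none fell, with a median log2 fold change of 0.25 beside 0.0021 over all genes. Of all 16086 genes tested, 1.08% were called higher and 0.392% lower. Serping1, the inhibitor of the C1 proteases, measured 2.25 and 1.78 CPM in mock and 17.5, 15.2 and 14.1 CPM after cuprizone, a log2 change of 2.95 ± 0.20 (SE; edgeR adjusted p = 2.4e-05) called in all 15 alternatives. It was also higher at 5 weeks (4.73 and 35.0 CPM, 7.40-fold, 5.98 to 9.24) and at 7 weeks (2.02 and 22.2 CPM, 10.96-fold, 8.275 to 14.8), where mock 1, a repeat, measured 3.62 CPM and lies outside that interval. Serping1 was thus high at 5 weeks where C4b was not, and the difference of its 5-week effect from that of 5.5 weeks did not pass (log2 difference -0.13 ± 0.33, edgeR adjusted p = 0.916). Itgax, the alpha chain of complement receptor 4, rose by 4.72 ± 0.95 (edgeR adjusted p = 0.03225) from 0 and 1 counts to 10, 21 and 14. This fitted value rests on 1 mock count, and the call was kept in 7 of 11 alternatives. Itgax passed the filter on low counts only through the cuprizone libraries. The count of 2 is therefore a description, with no reading against the share over all genes.

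At 5 weeks 11 of the 54 reached 5 CPM, where Serping1 was over 2-fold higher and 4 were over 2-fold lower, with a median log2 ratio of -0.73. With library totals in place of TMM, 2 were over 2-fold lower. Of all 11570 genes at this level, 8.89% were at least 2-fold higher and 12.2% lower. Serping1, C1ql3 and Csmd2 reached the level in only 1 library. The 4 lower genes were Sez6 (3.18-fold lower), C1ql3 (3.105-fold), Csmd2 (2.16-fold) and C1ql2 (2.11-fold), genes known mainly from neurons. At 7 weeks 19 of the 54 reached 5 CPM, with 11 higher, 1 lower and a median of 1.85. Of all 12173 genes at this level, 9.9% were at least 2-fold higher and 5.54% lower. Among the higher, genes such as Vtn, Itgax and Cd93 reached 5 CPM only through the cuprizone library. The counts of both weeks are therefore descriptions, with no reading against these shares. The integrin chains Itgam (15.5-fold, 7.94 to 34.5), Itgb2 (22.3-fold, 14.3 to 36.8) and Itgax (69.3-fold, 23.4 to 339) of the complement receptors were among the higher, as were the pore inhibitor vitronectin, Vtn (54.6-fold, 38.8 to 79.6) and Cd93, a gene of endothelial and myeloid cells (284 counts against 1). Colec12 (10.7-fold), Csmd3 (4.22-fold), Csmd1 (3.63-fold) and Csmd2 (2.96-fold) were also higher. In the same library 6 of 6 endothelial and 4 of 4 pericyte markers were at least 2-fold higher, and their part in these values was not tested. All 6 endothelial markers and the pericyte markers Kcnj8 and Abcc9 were below 5 CPM in mock and reached it only through that library. C1qbp, a mitochondrial protein that binds C1q heads, was 2.11-fold lower, at 182.1 and 86.2 CPM. It was less than 2-fold lower with library totals in place of TMM or with cuprizone 1, a repeat at 108.3 CPM, and the split of the 19 was then 11 higher and 0 lower or 12 and 0. The 7-week folds of Vtn and Itgax also depend on the mock library: Vtn measured 1.26 CPM in the library used and 3.245 CPM in the repeat mock 2, and Itgax 0.114 CPM and 0.402 CPM in the repeat mock 1. Clu, the abundant secreted chaperone clusterin, measured 1952 and 1383 CPM at 5 weeks and 2607 and 2732 CPM at 7 weeks, and did not pass the test at 5.5 weeks (log2 fold change 0.37 ± 0.14, edgeR adjusted p = 0.32). Cr1l, a C3 convertase regulator, differed by at most 1.33-fold at 5 and 7 weeks and had a log2 change of -0.23 ± 0.13 at 5.5 weeks (edgeR adjusted p = 0.58).

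**Figure D4:**
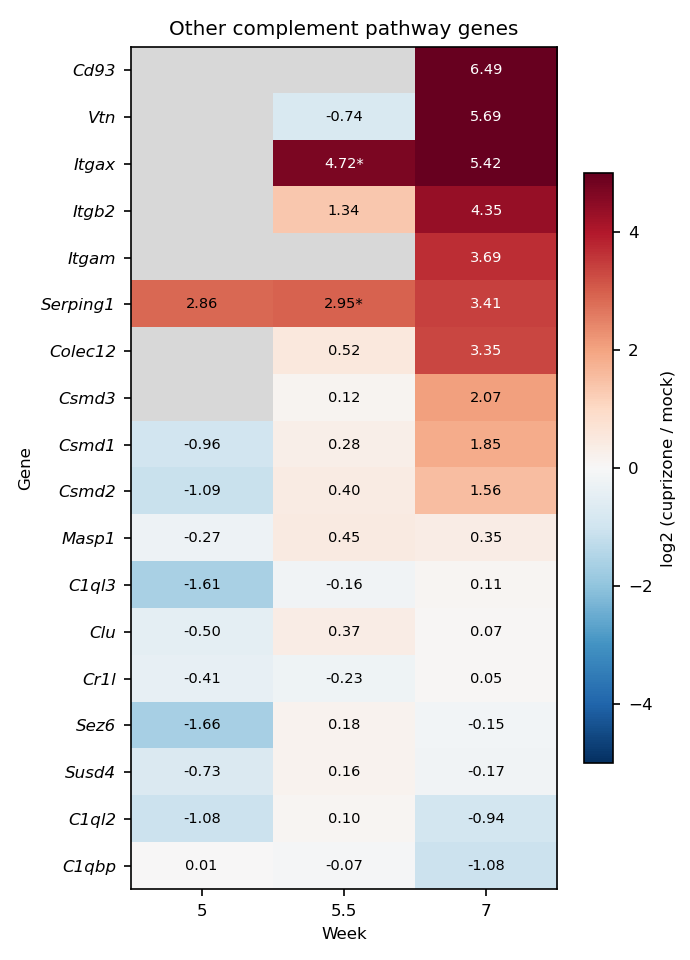
Log2 ratio of cuprizone to mock for 18 other complement pathway genes of the 19 that reached 5 CPM at 7 weeks, by week. Numbers are the ratios (colour is cut at 5 in each direction), stars mark calls by edgeR at 5.5 weeks and grey cells were not measured or not tested; Serping1 is the gene that is at least 2-fold higher in all 3 weeks.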

How the data were processed

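Values are counts per gene as deposited, 1 table per library, with no normalization. Per the submitters' processing notes, the tools were FastQC 0.11.9, STAR 2.5.4b and featureCounts 1.6.0. The notes name GRCm38/mm10 and GRCm39/mm39 without roles, so no gene coordinates are given beyond RefSeq promoters in GRCm38.p6. Strand setting is not given in the sources used here. Symbols, chromosomes and exon lengths came from GENCODE M21, which names 99.4% of batch 1 and 94% of batch 2 identifiers.

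At 5.5 weeks, genes passing filterByExpr (minimum count 10) were TMM-scaled and tested with edgeR 4.0.16 (quasi-likelihood, robust, two-sided, Benjamini-Hochberg over all genes; R 4.3.3). DESeq2 1.42.0 and limma-voom (limma 3.58.1) were alternatives. At 5 and 7 weeks ratios of TMM-scaled CPM used a prior count of 2, a minimum of 5 CPM and exact 95% intervals, which cover counting error only, since reads are not independent molecules. The labels call the libraries biological replicates without naming animals, so p-values measure the spread between these libraries. Only the 5.5-week edgeR fit was tested on simulated counts. It called 49.3% of 1.5-fold, 92% of 2-fold and 100% of 4-fold changes, with 6 false calls among 15844 genes. The shared fit of 9 libraries was not tested in this way. Members, lists and motifs were chosen with earlier results of these data known, the motifs after the promoters were read. Named were the members, their close copies, Serping1, Clu, Itgam, Itgb2, Cr1l, Itgax and those pathway genes called at 5.5 weeks or 2-fold apart at 5 or 7 weeks. Of the pathway genes, 1 that meets this rule is counted but not reported by value here.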

Additional observations from a re-analysis of the deposited data

Results flagged for a closer look

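The cuprizone effect differed between weeks, by edgeR's test of the difference in the fit of 9 libraries, for the genes below, given as log2 differences. Between 5 and 5.5 weeks the effect was lower at 5 weeks for C4b (-2.33) and Cd55 (-1.48) and higher for C1qc (1.39). Between 7 and 5.5 weeks it was higher at 7 weeks for C3 (3.295), C4b (0.73), C3ar1 (4.52), C1qa (3.75), C1qb (3.51), C1qc (3.61) and Cd59a (1.79). The 7-week values rest on 1 library per group, and the 5-week values also on another batch.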

How the results depend on the processing

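Over 470 alternative values for the 9 genes, 408 counted as the same, 17 newly passed the threshold, 23 no longer did, 15 moved and 7 reversed. At 5.5 weeks and for differences between weeks, the same means that direction and side of the threshold were kept. For the 5- and 7-week ratios it means within the counting interval of the main ratio, and moved means outside it. Those that moved include changes of sign, as for C3ar1 and Cd59a at 5 weeks against mock 1. The count of members called at 5.5 weeks (3) was 6 with no low-count filter and 1 to 3 when 1 library was left out. The other pathway genes called (2) were 1 with DESeq2, with a filter of 1 CPM in 2 libraries, with the repeats added as samples (6 libraries) or averaged in, and 1 to 2 with 1 library left out. All genes called (236) were 543 with no filter, 398 with the 6 libraries and 65 to 274 with 1 library left out. Members at least 2-fold apart at 5 weeks (3, all higher) were 7 with no CPM minimum (6 higher, 1 lower) and 5 against mock library 1 (3 higher, 2 lower), and in the shared fit 7 had an adjusted p under 0.05 (6 higher, 1 lower). Effects that differed between 5 and 5.5 weeks (3) were 7 with all 17 libraries and 1 to 5 with 1 library left out, and those between 7 and 5.5 weeks (7) were 6 to 7. With all 17 libraries the difference between 5 and 5.5 weeks reversed for C3ar1 (-1.07) and Cd59a (-0.21). Cd55 at 5.5 weeks lay at 0.000605 with RLE scaling, -0.129 to 0.158 with 1 library left out and 0.0038 in the shared fit. The replicate numbers do not pair the libraries (r = 0.111 and -0.122 for the 2 shared numbers); with the replicate block 750 genes and 4 members were called, 3 other pathway genes, and Cd55 lay at 0.157. The cause of these shifts was not tested. Low counts limit C3, C3ar1 and C5ar1.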

Other observations

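Chosen after its values were seen, Hc, the C5 gene, had 0 counts in the 5-week mock library and 50 after cuprizone. This was 15.9-fold higher against a floor of 3 counts, and the exact interval for counting error began at 12.45-fold. Hc was also at 0 in the repeat mock 1. At 7 weeks Hc had 14 counts in mock and 11 after cuprizone. C1s1, a C1 protease, had 0 counts in the 5-week mock library, 27 in the repeat mock 1 and 56 after cuprizone, so no fold is given.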
